A study of Mus musculus with 10 samples.

Results

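A set of 5016 open chromatin regions was called after each of 4 drug or cytokine treatments of Myc-CaP cells and not in untreated cells. Accessibility was measured by ATAC-seq, in which a transposase cuts and tags DNA that is not covered by nucleosomes. Myc-CaP is a mouse prostate cancer cell line that came from a tumor driven by a Myc transgene under a prostate promoter, and all groups share it as their only model. Cells were left untreated (Ctrl) or received oxaliplatin at 2 µM (Oxali), cisplatin at 2 µM (Cispl), the cytokine interferon-γ (IFNγ, labeled as 1000 pg without a volume) or both oxaliplatin and IFNγ at those doses (Oxali + IFNγ, the combination). All 5 groups were each represented by 2 libraries and collected at 48 h. The authors pooled both libraries of a group before they called peaks, so each group has 1 peak list. No value below has a replicate, a standard deviation or a test, and whether any difference exceeds the spread between libraries was not testable here.

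Intervals of the 5 lists that overlapped by 1 bp were merged into 211107 regions. The regions described here were selected on these calls: an interval from each of the 4 treated lists had to overlap them, and none from Ctrl. They are named the shared treated regions below, and they made up 2.38% of all merged regions. Their presence after treatment and their absence from Ctrl are fixed by this choice and are not findings. In pooled cells, a region open in more cells and a region more open in each cell cannot be told apart.

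Most regulatory DNA that changes with a stimulus lies in enhancers, away from gene starts, where transcription factors bind and displace nucleosomes. AP-1, a dimer of Jun and Fos proteins, is induced by stress, DNA damage and many cytokines and is a known opener of enhancers. Platinum drugs crosslink DNA. IFNγ signals through Jak kinases, and the GAS element and the ISRE are the DNA elements known from interferon-induced genes. CTCF sits at insulators and loop anchors.

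The 5 sequences below with AP-1 matches show what the most frequent of the searched motifs looked like at the summits of these regions, and the Isg15 sequence shows the interferon element. All are from the forward strand of GRCm38 (mm10), 5′ to 3′. The first 5 span 100 bases on each side of the summit, and the Isg15 sequence holds only the bases before the annotated start of this reverse-strand gene. Capitals mark the AP-1 letters TGANTCA in the first 5, and in the Isg15 sequence runs of the ISRE, GAAA followed after any 2 bases by GAAA, read here on the reverse strand. The first 3 follow the rule for named regions, and the other 3 were chosen after their values were seen.
Lmna intron, chr3:88500254-88500454: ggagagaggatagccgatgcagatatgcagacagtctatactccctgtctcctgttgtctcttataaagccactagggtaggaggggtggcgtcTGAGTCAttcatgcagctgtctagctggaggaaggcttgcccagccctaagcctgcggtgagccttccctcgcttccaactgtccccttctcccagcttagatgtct
Nln intron, chr13:104041137-104041337: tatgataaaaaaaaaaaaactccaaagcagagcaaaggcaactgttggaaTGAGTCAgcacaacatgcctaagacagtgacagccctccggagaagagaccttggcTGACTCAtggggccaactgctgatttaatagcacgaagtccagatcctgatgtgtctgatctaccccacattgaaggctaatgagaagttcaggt
Between genes, nearest Vdac1, chr11:52335986-52336186: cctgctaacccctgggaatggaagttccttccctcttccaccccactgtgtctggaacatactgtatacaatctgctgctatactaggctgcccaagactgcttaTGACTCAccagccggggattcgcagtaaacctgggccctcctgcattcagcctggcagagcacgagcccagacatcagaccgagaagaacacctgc
Gm20757 intron, chr10:92315406-92315606: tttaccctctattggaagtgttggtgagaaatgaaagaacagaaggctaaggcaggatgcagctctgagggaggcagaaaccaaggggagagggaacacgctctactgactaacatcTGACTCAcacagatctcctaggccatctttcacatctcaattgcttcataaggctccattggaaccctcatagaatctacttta
Myo5a intron, chr9:75196469-75196669: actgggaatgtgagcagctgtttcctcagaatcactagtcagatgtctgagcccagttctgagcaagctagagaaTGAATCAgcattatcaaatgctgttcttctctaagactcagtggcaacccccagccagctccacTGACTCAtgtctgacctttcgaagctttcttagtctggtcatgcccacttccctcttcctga
Isg15 upstream sequence, chr4:156200819-156200939: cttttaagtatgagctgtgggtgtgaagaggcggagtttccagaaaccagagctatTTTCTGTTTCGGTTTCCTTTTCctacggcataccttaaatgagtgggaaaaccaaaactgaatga

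The Lmna match, TGAGTCA, was centered 3 bases from the summit. The Nln and Myo5a windows each held 2 AP-1 matches, and the nearest one lay 9 bases from the summit in Nln. The Isg15 sequence held 3 overlapping ISRE matches.

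Each treated list had many regions without a Ctrl call, and the shared treated regions are the part that all 4 had in common. Of the merged regions, 22.9% were called in Oxali and not in Ctrl, 28.7% in Cispl, 31.3% in Oxali + IFNγ and 7.12% in IFNγ. The Cispl list ends at a stricter −log10 p, 2.99 instead of 2.00, so its share and the count missing from it alone rest on fewer weak calls. With that floor in all lists the shared treated regions numbered 4905. IFNγ had the smallest of these shares. A region missing from 1 list alone was missing from IFNγ in 10288 cases, from Ctrl in these 5016, from Oxali in 1467, from Cispl in 872 and from Oxali + IFNγ in 781. Another 23528 regions were called in the 3 platinum lists alone and 85377 in all 5 lists. The genome background of a list, which scales with its reads, was lowest in IFNγ at 9.62 reads, followed by Oxali at 11.3, Ctrl at 12.1, Oxali + IFNγ at 12.9 and Cispl at 13.8. Ctrl was thus deeper than both Oxali and IFNγ, and its part in the missing calls was not tested.

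Start sites of prostate and epithelial genes were used to check the cell type. Krt8, Foxa1 and Hoxb13 had Ctrl intervals with pileups of 1078, 1197 and 1139 reads, and Epcam and Cdh1 had none. Krt18 had a faint Ctrl interval with 43 reads and no interval in Cispl, IFNγ or Oxali + IFNγ. Of 6 markers of blood, vessel and liver cells, Pecam1 alone had a Ctrl interval, with a pileup of 29 reads.

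The calls of the shared treated regions were weak to moderate. The median pileup, the number of reads stacked at the summit, was 54 in the Oxali list, 60 in Cispl, 30 in IFNγ and 69 in the combination. Pileups ranged from 20 to 994 in the Oxali list, 26 to 1214 in Cispl, 18 to 1559 in IFNγ and 22 to 1128 in the combination. A q-value of at most 0.01 was reached in all 4 lists by 4237 of them, 1e-05 by 1942 and 1e-10 by 525. In 3752 regions (74.8%) the weakest p-value was that in IFNγ. The median width was 398 bp, compared with 761 bp for regions called in all 5 lists and 336 bp for those called in the platinum lists alone.

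The members closest to the call threshold show how little separates inside from outside. The weakest region inside had a −log10 p of 2.02 in IFNγ, with a pileup of 20 there, and 92 in Oxali + IFNγ. The weakest outside had a Ctrl −log10 p of 2.05 on a Ctrl pileup of 24, and a pileup of 129 in Oxali, so a faint Ctrl call alone kept it out. In all, 201 regions called in all 5 lists had a Ctrl −log10 p under 2.99, the end of the Cispl list. Their median levels were 4.17 in the Oxali list, 4.14 in Cispl, 2.81 in IFNγ and 4.73 in the combination, beside 1.89 in Ctrl, a low value that this choice fixes.

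Level is the pileup divided by the list's own genome background, which scales with its reads. The median level of the shared treated regions was 4.79 in the Oxali list, 4.36 in Cispl, 3.12 in IFNγ and 5.35 in the combination. Regions called in all 5 lists were about 3 times higher, at 14.8, 13.7, 9.77 and 14.8 in the same order and 11.45 in Ctrl. A pileup of 21, a level of 1.73, was enough for a Ctrl call at the authors' threshold over the genome background. The lowest treated level was at least 2 times that level in 1489 regions (29.7%). Of these, 180 lay over 1 kb from any Ctrl interval and at the genome background in all 4 treated lists.

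Oxali + IFNγ was most often the highest list and IFNγ most often the lowest, but this order depended on the scale. By level, 2366 regions (47.2%) were highest in Oxali + IFNγ, 1158 in Cispl, 1152 in Oxali and 340 in IFNγ, and 3282 (65.4%) were lowest in IFNγ. When each level was divided by the median level of the regions called in all 5 lists, 1869 (37.3%) were highest in IFNγ, 1583 (31.6%) in Oxali + IFNγ, 922 in Cispl and 642 in Oxali. On that scale the medians were 32.3% of the five-list median in the Oxali list, 31.7% in Cispl, 31.9% in IFNγ and 36.1% in the combination. IFNγ also had the lowest median level in the regions called in all 5 lists. Every shared treated region had to be called in IFNγ, where the p-value was most often the weakest. This choice bounds the IFNγ level from below, and its part in the scaled order was not tested. The ratio of Oxali + IFNγ to Oxali had a median of 0.12 on the log2 scale, and 64.3% of the regions were higher with IFNγ added. In regions called in all 5 lists that median was -0.04, with 44.1% higher.

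**Figure D1:**
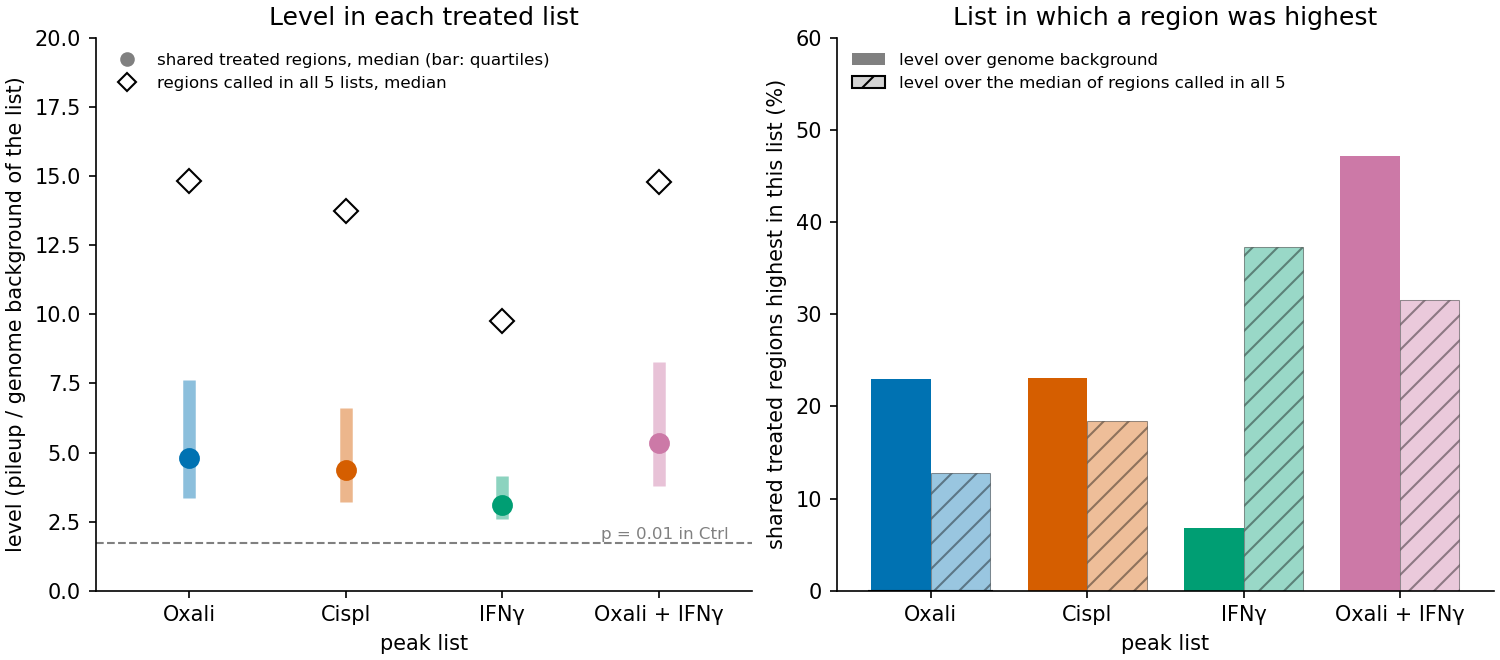
Left, level (pileup over the genome background) of the 5016 shared treated regions in each treated list, points being medians and bars quartiles, with the median of regions called in all 5 lists as diamonds and the level needed for a Ctrl call as a dashed line. Right, share of the regions that were highest in each list under both scales: Oxali + IFNγ leads over the genome background (47.2%) and IFNγ leads over the five-list median (37.3%).

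The regions with the best q-values in all 4 lists lay mostly beside sites that were open in Ctrl. They were Wipi1, Gm10719, Slc39a10, Tmem107, Sh3bp4, Ugp2, Lmna, Kmt2e, Hpcal1 and Sp2, named by the nearest protein-coding gene, and 7 of these 10 lay within 500 bp of a Ctrl interval. Local backgrounds there were 131 to 488 reads in Oxali and 87.5 to 872 in IFNγ, far over the genome background. Beside the start of Wipi1, which encodes an autophagy protein (chr11:109610222-109610496), pileups were 576 in the Oxali list, 526 in Cispl, 419 in IFNγ and 674 in the combination. A Ctrl interval lay 304 bp away. At Gm10719 (chr9:3020827-3021156) pileups were 994, 1214, 1559 and 1128 in the same order, and 100% of the bases were repeat-masked. In the intron of Lmna, which encodes nuclear lamins A and C, they were 380, 454, 336 and 516, and the nearest Ctrl interval was 1246 bp away. By level, IFNγ (34.9) exceeded Oxali (33.7) and Cispl (33.0) there and stood below Oxali + IFNγ (39.98), and scaled to the five-list median it was the highest list. IFNγ was the highest list on that scale in 9 of these 10, which were ranked by their weakest q-value over the 4 lists.

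The 10 best regions over 1 kb from Ctrl intervals and at the genome background in all 4 lists, a rule added after values were seen, had lower pileups than the 10 above. The one with the best q-values lay in an intron of the long noncoding gene B230303A05Rik (chr13:15907583-15908173), 103678 bp from the start of Inhba, which encodes the activin βA subunit. The pileup there was 249 in the Oxali list (95% Poisson interval 219 to 282), 131 in Cispl, 52 in IFNγ (38.8 to 68.2) and 231 in the combination, with the nearest Ctrl interval 31346 bp away. In an intron of St8sia1, a ganglioside sialyltransferase gene (chr6:142936888-142937121), pileups were 83, 64, 52 and 59 in Oxali, Cispl, IFNγ and Oxali + IFNγ. Between genes near Rapgef5, a Ras-family exchange factor (chr12:117480965-117481732), they were 139, 95, 49 and 190. Both lists with oxaliplatin stood highest at Inhba and Rapgef5, on both scales, whereas at St8sia1 Oxali was highest by level and IFNγ when scaled to the five-list median.

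In the intron of Myo5a, a myosin motor gene (chr9:75196279-75196723), pileups were 76, 91, 51 and 73 in the same order. In an intron of Nalcn, a sodium leak channel gene (chr14:123339777-123340393), they were 53, 67, 47 and 58. In an intron of Ext1, a heparan sulfate polymerase gene (chr15:53069166-53069814), they were 77, 72, 46 and 95. IFNγ, the list with the lowest genome background, had the lowest pileup in each of these 3 regions. By level it was lowest at Myo5a (5.30) and Ext1 (4.78) and highest at Nalcn (4.88), but scaled to the five-list median it was highest at Myo5a and Nalcn and lowest at none of the 3. The remaining regions of this kind were nearest to Nedd1, Smndc1, Elmo1 and Stard3nl, and IFNγ had the lowest level in 7 of all 10, but in 1 when scaled to the five-list median. Oxali + IFNγ had the highest in 6 on either scale. The AP-1 letters occurred in 8 of the 10, compared with 4 of the 10 regions with the best q-values. Among all 2142 regions over 1 kb from Ctrl and at the genome background the share was 42.1%.

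**Figure D2:**
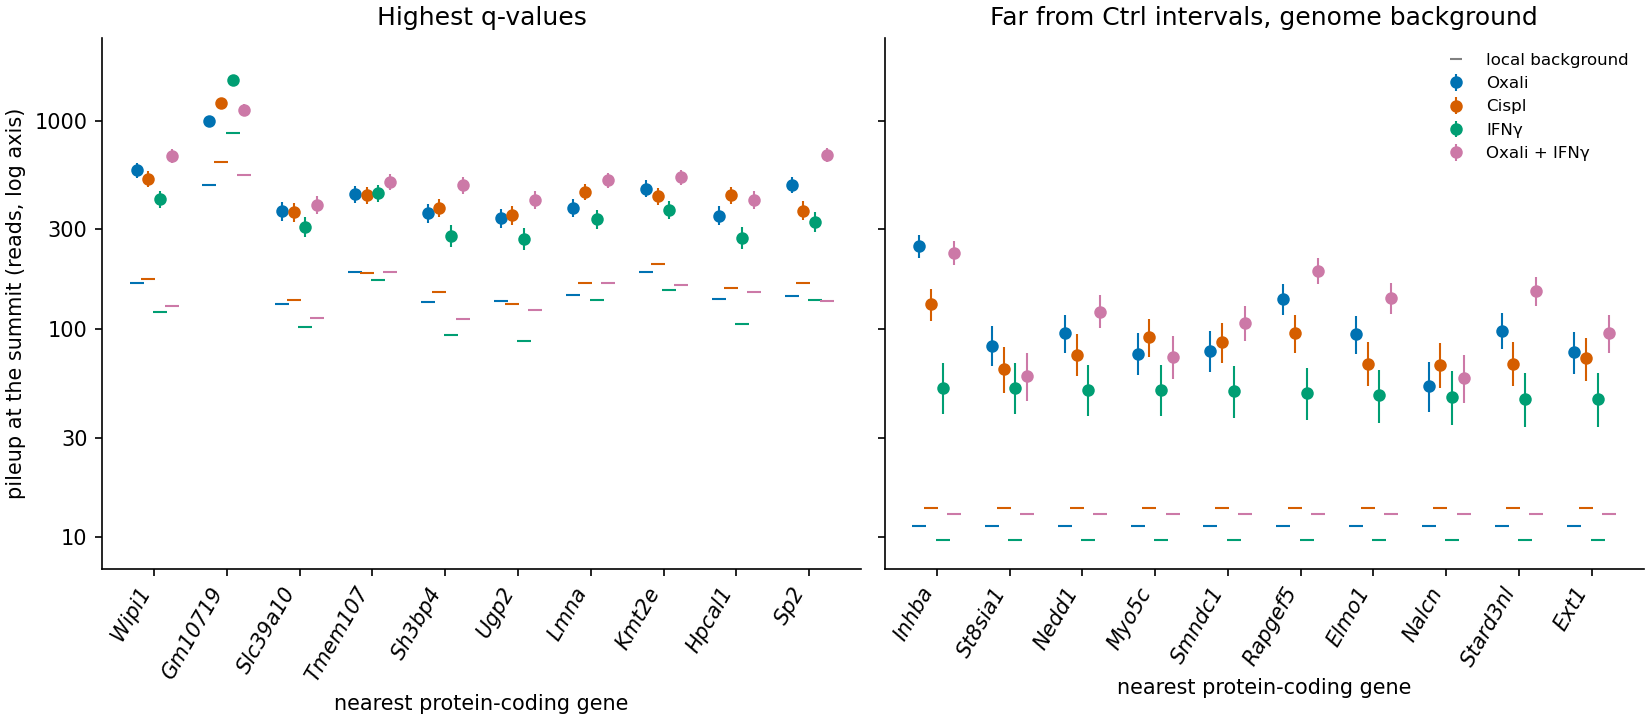
Pileup at the summit (reads, log axis) in the 4 treated lists for the 10 regions with the best q-values (left) and the 10 best over 1 kb from Ctrl intervals at the genome background (right), with 95% Poisson intervals that cover counting error only and dashes for the local background. The left regions stand on backgrounds of up to 872 reads, the right ones on backgrounds of 9.62 to 13.8.

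The shared treated regions lay mostly away from gene starts. Of them, 43.0% were in introns, 39.0% between genes, 6.48% in exons and 11.6% (95% Wilson interval 10.7 to 12.5%) within 1 kb of an annotated start site. Start sites took 19.6% (19.3 to 19.9%) of the regions called in all 5 lists, 7.40% (7.08 to 7.75%) of those called in the platinum lists alone, 6.61% of those missing from IFNγ alone and 12.4% of all merged regions. The start-site share was between those of the five-list and platinum-only regions. Without regions within 500 bp of a Ctrl interval it was 6.93% (6.16 to 7.79%), and the platinum-only share was not recomputed in that way. All such intervals cover counting error only. At least 50% of the bases were repeat-masked in 11.3% of the regions, compared with 10.7% of the five-list regions and 14.6% of the platinum-only regions. The share of a chromosome's regions that belonged to the set ran from 2.00% on X to 2.68% on 1 among chromosomes other than Y, where 3 of 90 did.

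**Figure D3:**
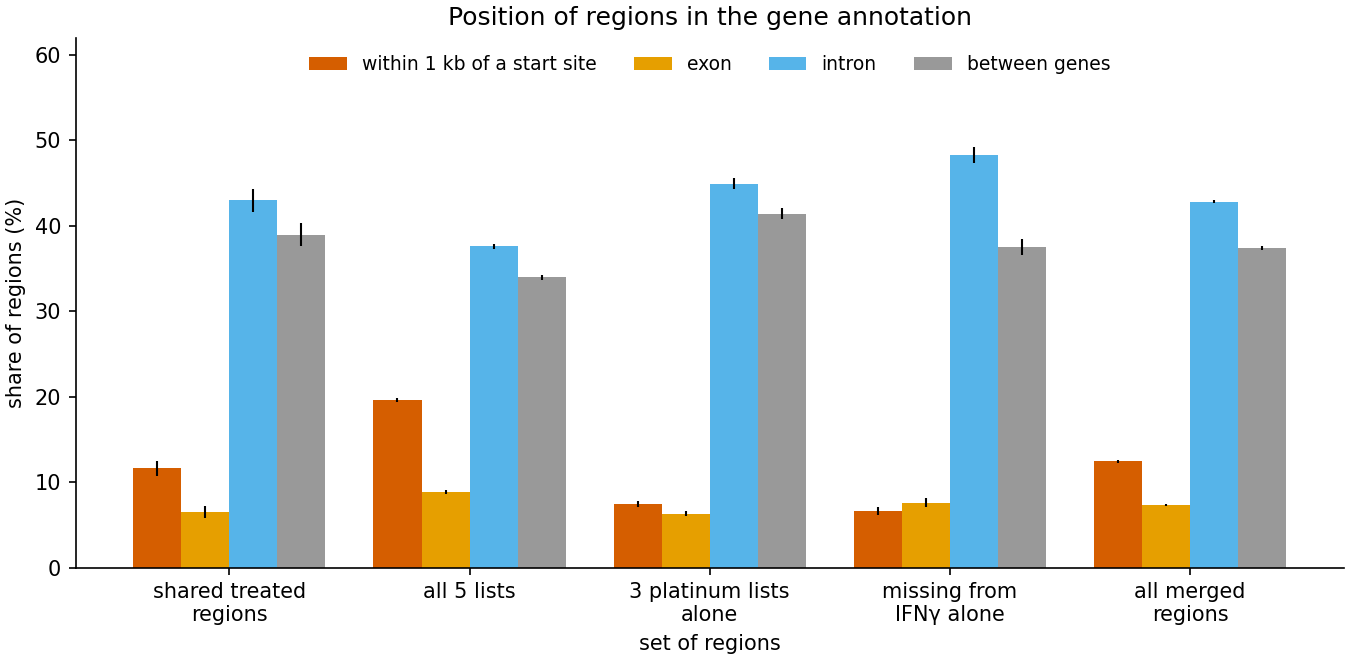
Share of regions (%) by place in the annotation for 5 sets, with 95% Wilson intervals. Start sites make up 11.6% of the shared treated regions, 19.6% of the regions called in all 5 lists and 7.40% of those called in the 3 platinum lists alone.

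Many of the regions sat beside an untreated open site. A Ctrl interval lay within 500 bp of 1263 regions (25.2%), compared with 12.3% of the platinum-only regions, while 1780 (35.5%) lay over 5 kb away. Within 500 bp the nearest Ctrl interval had a median pileup of 165 and the local background in Oxali was 1.99 times the genome value. The median level in Oxali was 6.12 up to 500 bp, 4.08 at 5 to 20 kb and 4.70 over 20 kb away, and that in IFNγ was 4.26, 2.81 and 2.81.

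AP-1 was the most frequent of the 16 motifs searched. Its letters TGANTCA lay within 100 bp of the summit in 1775 of the 5016 regions, 35.4% (34.1 to 36.7%). The share was 24.0% (23.7 to 24.3%) in regions called in all 5 lists, 21.6% (21.1 to 22.1%) in those of the platinum lists alone, 15.5% in those missing from IFNγ alone and 20.99% in all merged regions. The same letters in reversed order, searched for comparison, were found in 9.09% of the shared treated regions and 6.87% of the five-list regions. With C or G required in the middle, as in the classical site, the shares were 29.8% and 20.7%. Of the 31 patterns of calls over the 5 lists, only the 950 regions called in Oxali, IFNγ and Oxali + IFNγ held AP-1 more often, at 42.3% (39.2 to 45.5%). The next were the 10170 regions called in Oxali and Oxali + IFNγ alone, at 33.4% (32.5 to 34.4%), and those missing from Cispl alone, at 31.1% (28.1 to 34.2%).

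The AP-1 matches lay near the summit in both the shared treated and the five-list regions. The nearest match was a median of 22 bp from it in the former and 25 bp in the latter, and 54.9% and 51.2% of regions with a match had one within 25 bp. The 20 bp just before the summit held 8.83 matches per 100 regions, compared with 5.15 in the five-list regions. When the summit of Oxali, Cispl, IFNγ or Oxali + IFNγ was used in turn, the share was 35.7%, 34.5%, 35.6% and 35.6%.

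AP-1 was unevenly spread over the set. Matches were found in 38.6% of the intronic regions, 37.4% of those between genes, 30.2% of those in exons and 19.8% (16.7 to 23.2%) of those at start sites. Among five-list regions the same shares were 28.3%, 26.7%, 24.5% and 10.8%, lower at each place. Within 500 bp of a Ctrl interval 22.8% (20.6 to 25.2%) had a match, compared with 39.8% at 1 to 5 kb and 41.8% at 5 to 20 kb. Among the 2142 regions over 1 kb from Ctrl and at the genome background the share was 42.1%. Base composition moved with it as well: 40.5% of regions with a window GC content under 45% had a match, and 23.2% of those at 55% or more, while in five-list regions the shares were 29.6% and 12.6%.

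The treatment with the highest level also divided the set. The AP-1 share was 41.0% (39.0 to 43.0%) in regions highest in Oxali + IFNγ, 38.1% (35.3 to 40.9%) in those highest in Oxali, 30.3% (25.7 to 35.4%) in those highest in IFNγ and 22.8% (20.5 to 25.3%) in those highest in Cispl. Scaled to the five-list median, the shares were 43.4%, 42.5%, 32.5% and 22.6%, so the order was the same on both scales. Regions highest in Cispl had CTCF letters in 8.12%, and those highest in Oxali + IFNγ in 2.92%.

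**Figure D4:**
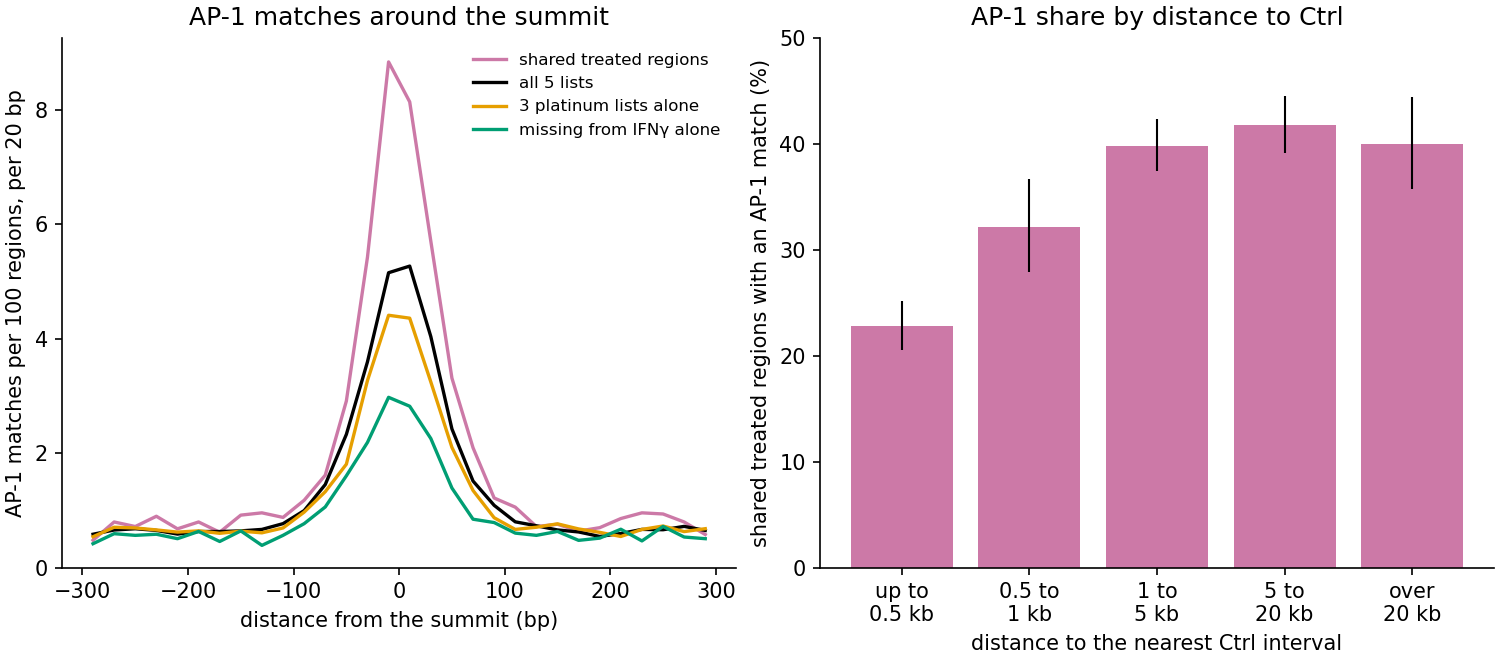
Left, AP-1 matches per 100 regions in each bin of 20 bp around the summit for 4 sets: the shared treated regions reach 8.83 and the five-list regions 5.27. Right, share of the shared treated regions with an AP-1 match by distance to the nearest Ctrl interval, with 95% Wilson intervals, from 22.8% up to 0.5 kb to 41.8% at 5 to 20 kb.

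Other motifs were less frequent. RUNX letters (TGTGGTT), bound by the Runx factors, occurred in 10.6% (9.80 to 11.5%) of the shared treated regions, 8.85% of the five-list regions, 13.5% of the platinum-only regions and 10.4% of all regions. Without regions mostly repeat-masked the share in the shared treated regions was 8.45% (7.67 to 9.30%). The five-list share was not computed without such regions, so it is not set beside this value. The p53 element, searched by the core letters of its paired sites, occurred in 7.08%, compared with 6.32% of five-list regions. AGATAA, bound by the Gata factors, occurred in 6.50% of the shared treated regions and 6.15% of the five-list regions. TEAD letters (GGAATGT) occurred in 4.94% and 4.83% of the same sets. Forkhead letters (FOX, TGTTTAC) occurred in 4.29% and 4.69%. The intervals of these 3 motifs all held the five-list value.

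CTCF letters (CCA, 2 bases, AG, 2 bases and GGC) were in 5.06% (4.49 to 5.71%) of the shared treated regions, 15.2% of the five-list regions and 9.98% of the platinum-only regions. In repeat-masked regions of the set the CTCF share was 24.0%, and it was 2.65% in the rest. Motifs of gene starts were also less frequent than in five-list regions. SP/KLF (GGGCGG) occurred in 4.25% and 14.1%, ETS (CCGGAAG) in 0.84% and 3.20%, the cyclic AMP element (CRE, TGA, CG and TCA in a row) in 0.30% and 0.66%, and the E-box (CACGTG) in 3.33% and 4.14%. The reversed letters of SP/KLF differed as much (4.45% and 13.55%), and in the shared treated regions those of ETS (3.05%), CRE (0.88%) and the E-box (5.76%) were more frequent than the motifs. NFI (TTGGC and GCCAA, 5 bases apart) was found in 1 region.

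Elements of the interferon pathway were rare. The ISRE was in 3.03% (2.59 to 3.54%) of the shared treated regions, compared with 1.96% of five-list regions and 3.34% of platinum-only regions. Its reversed letters were in 2.37% of the shared treated regions and 1.85% of five-list regions. The GAS element (TTCC and GGAA, 1 base apart) was in 0.50%, compared with 0.94% of five-list regions, and the NF-κB site (GGGA, any base, TTTCC) in 0.44% (0.29 to 0.66%), compared with 0.26% of five-list, 0.55% of platinum-only and 0.34% of all regions. Some other letters were less frequent in regions with AP-1: the ISRE was in 1.46% of regions with an AP-1 match and in 3.89% of those without, RUNX in 8.62% and 11.7%, and CTCF in 2.65% and 6.39%. TEAD (4.73% and 5.06%) and NF-κB (0.56% and 0.37%) had overlapping intervals. Both strands were searched for every motif, matches of different motifs may overlap, and a match is a description of letters only.

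**Figure D5:**
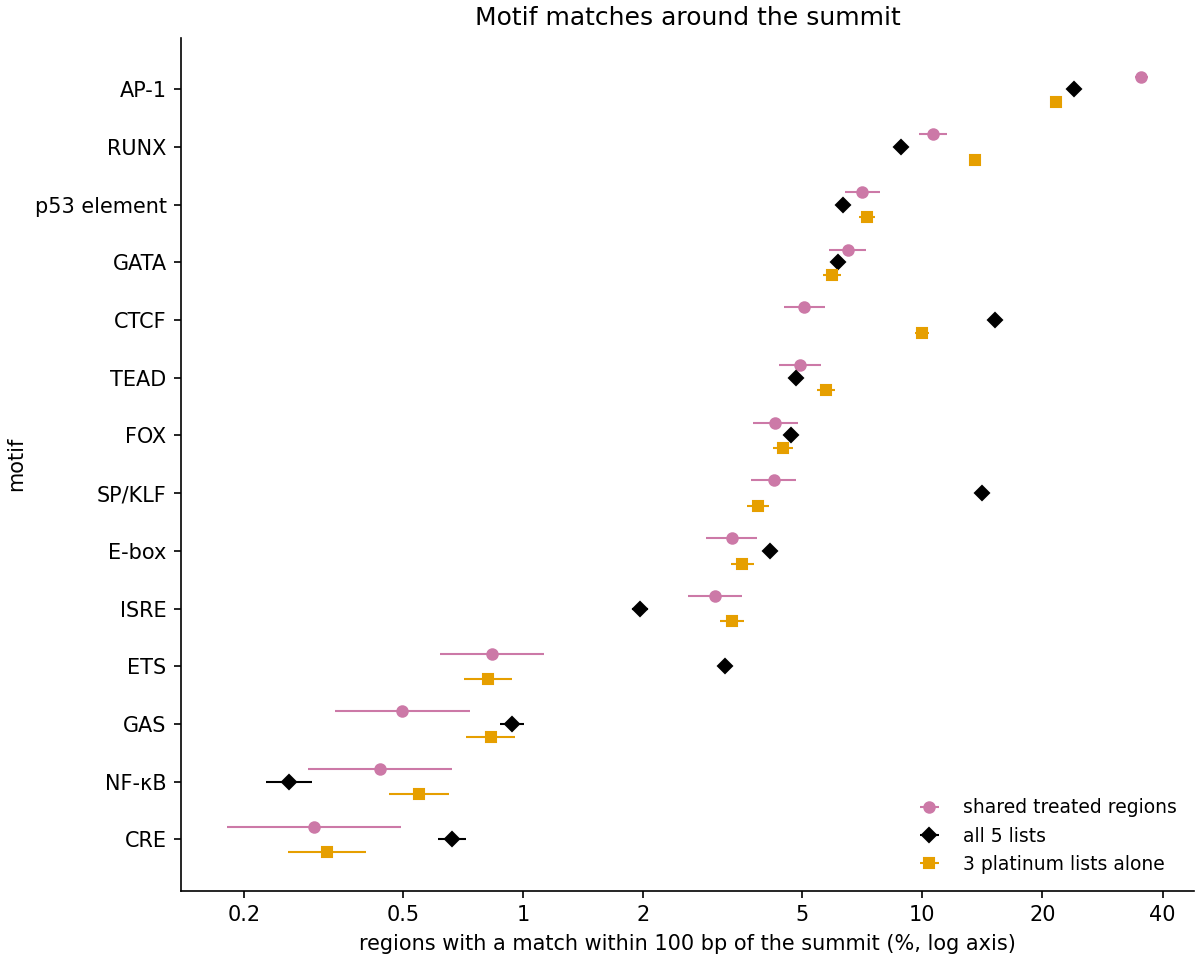
Share of regions with a match within 100 bp of the summit (%, log axis) for the motifs described here in 3 sets, with 95% Wilson intervals; NFI, found in 1 shared treated region, is not drawn. AP-1 is higher in the shared treated regions (35.4%) than in the five-list (24.0%) and platinum-only (21.6%) regions, and CTCF and SP/KLF are lower than in the five-list regions.

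Around genes of the interferon pathway and of class I antigen presentation, the subject of the study, the share of regions that belonged to the set was close to that over all regions. Of 154 merged regions within 5 kb of the 25 interferon genes found in the annotation, 4 (2.60%) belonged to the set, near the 2.38% of all regions. One overlapped the start of Isg15, an interferon-induced ubiquitin-like protein (chr4:156200704-156201039), with pileups of 359 in the Oxali list, 303 in Cispl, 224 in IFNγ and 410 in the combination over a local background of 146 in Oxali and 126 in IFNγ. One overlapped the start of Mx1, an antiviral GTPase (chr16:97462590-97463626), with 45, 54, 23 and 67. At Isg15 the level over the genome background was lowest in Cispl (22.015), followed by IFNγ (23.3), Oxali + IFNγ (31.77) and Oxali (31.85). Scaled to the five-list median, Isg15 was highest in IFNγ (238%), followed by Oxali and Oxali + IFNγ (both 215%) and Cispl (160.3%). At Mx1 the level was lowest in IFNγ (2.39) and highest in Oxali + IFNγ (5.19), on both scales.

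The other 2 lay 448 bp from the start of Usp18, a protease that removes Isg15 (chr6:121245239-121245458), and in an intron of Jak1, the kinase of the interferon receptors (chr4:101256646-101256870). Pileups were 91, 104, 58 and 117 at Usp18, with a Ctrl interval 71 bp away, and 54, 82, 29 and 56 at Jak1. By level IFNγ was the lowest list at Usp18 (6.03), but scaled to the five-list median it was the highest (61.7%). The Jak1 region held AP-1 letters.

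Of 82 regions around 17 class I genes, 2 (2.44%) belonged to the set. A region 864 bp from the start of B2m, the light chain of class I molecules (chr2:122148550-122148798), had pileups of 126, 142, 86 and 157 in Oxali, Cispl, IFNγ and Oxali + IFNγ, with a Ctrl interval 321 bp away. By level IFNγ was the lowest list at B2m (8.94), but scaled to the five-list median it was the highest (91.5%). A region inside Nlrc5, the transactivator of class I genes (chr8:94504045-94504335), had 47, 33, 21 and 39, at the genome background and 11122 bp from the nearest Ctrl interval. The q-value behind the Nlrc5 call was weak in its weakest list, with a −log10 q of 1.64.

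Around 18 NF-κB pathway genes 3 of 130 regions (2.31%) belonged to the set. An intron of Rel, an NF-κB subunit (chr11:23758315-23759123), had pileups of 101, 158, 29 and 121. An intron of Nfkbiz, an atypical IκB protein (chr16:55823884-55824127), had 254, 274, 141 and 253. A region beside Nfkbie, which encodes the inhibitor IκBε (chr17:45553287-45553536), had 134, 134, 51 and 216 and was mostly repeat-masked. At Rel and Nfkbie the 3 platinum lists were above IFNγ by level, and also when scaled to the five-list median. At Nfkbiz they were above it by level, but on the five-list scale IFNγ exceeded Cispl (145%) and Oxali + IFNγ (132%).

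Among p53 targets 2 of 118 regions (1.69%) did so, 1 near the cell death gene Bax, where the nearest start is that of Ftl1, and 1 beside the membrane gene Perp. Pileups were 225, 256, 158 and 188 at Bax and 24, 26, 23 and 49 at Perp. Scaled to the five-list median, Bax was highest in IFNγ (168%). Among AP-1 and immediate early genes it was 1 of 119 (0.84%), 3246 bp from the start of Junb, a subunit of AP-1 (chr8:84981964-84982244). Its pileups were the highest of any region named for a gene list, at 982, 829, 445 and 1008, over a local background of 399 in Oxali and 267 in IFNγ.

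Of 161 regions around DNA crosslink and excision repair genes 2 (1.24%) belonged to the set, in an intron of Fancd2 and within 5 kb of Fancc, both of the Fanconi anemia pathway, with pileups of 37, 39, 35 and 65 at Fancd2 and 24, 36, 21 and 33 at Fancc. Scaled to the five-list median, both were highest in IFNγ, at 37.2% and 22.3%. Of 137 around genes of the epithelial to mesenchymal transition 2 (1.46%) did so, in introns of the repressor genes Zeb2 and Zeb1. Pileups were 58, 103, 39 and 127 at Zeb2 and 132, 67, 33 and 189 at Zeb1. Among prostate lineage genes, an intron of Fkbp5, which encodes a steroid receptor co-chaperone (chr17:28515509-28515762), held a region with pileups of 547, 488, 211 and 530 and a Ctrl interval 147 bp away. Over all protein-coding genes 2.29% of the regions within 5 kb belonged to the set, and with so few regions per list the 95% Wilson intervals, 1.01 to 6.49% for the interferon list and 0.15 to 4.61% for the immediate early list, all held that value.

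A total of 2854 of 21951 protein-coding genes (13.0%) had a shared treated region in the gene or within 5 kb, and 2416 of them had 1. Such regions were mostly apart from each other: the median distance to the nearest other one was 86.8 kb, and 539 (10.75%) had another within 10 kb. Among genes shorter than 1 Mb, Ablim1 (5 of 78 regions), Ext1 (5 of 46), Rgs6 (5 of 77) and Ror2 (5 of 26) held the most. Their shares were 6.41%, 10.9%, 6.49% and 19.2%, compared with 2.29% over all protein-coding genes. These 4 genes were chosen after their counts were seen, which favors high shares.

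At Ror2, which encodes a Wnt receptor tyrosine kinase, 5 of 26 regions belonged to the set, 4 in introns and 1 at an exon. Pileups ran from 42 to 71 in the Oxali list, 40 to 59 in Cispl, 22 to 36 in IFNγ and 58 to 121 in the combination. Oxali + IFNγ had the highest level in all 5 on both scales. IFNγ had the lowest level in all 5, but in 1 when scaled to the five-list median, and none lay nearer than 1862 bp to a Ctrl interval. At Ext1, 5 of 46 regions belonged to it, of which 2 lay within 1 kb of an annotated start site and 101 and 485 bp from a Ctrl interval, with pileups of 222 and 320 in Oxali and 136 and 165 in IFNγ. The other 3 lay in introns, with 32 to 77 in Oxali and 22 to 46 in IFNγ.

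At Rgs6, a regulator of G-protein signaling, pileups ran from 30 to 43 in the Oxali list, 30 to 52 in Cispl, 23 to 45 in IFNγ and 35 to 70 in the combination, so the lists overlapped. IFNγ had the lowest level in 1 of the 5, and in 0 when scaled to the five-list median. AP-1 letters were in 3. At Ablim1, an actin-binding LIM protein gene, they ran from 39 to 116 in the Oxali list, 29 to 128 in Cispl, 22 to 111 in IFNγ and 53 to 152 in the combination. Oxali + IFNγ had the highest level in 4 of these 5, and in 3 when scaled to the five-list median.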

How the data were processed

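ATAC-seq reads of 2 libraries per group were trimmed (cutadapt), aligned to mm10 (Bowtie2 2.2.8, per the submitters' processing notes), filtered for mapping quality, duplicates and mitochondrial reads (SAMtools), pooled per group and called with MACS2 2.1.0 by the authors at p 0.01 with no control library, and blacklisted peaks were removed. The 5 deposited peak lists give, per summit, a fold (ratio of pileup plus 1 to local background plus 1), a −log10 p-value and a score (the −log10 q-value), as the authors' peak caller wrote them. The Cispl list ends at a −log10 p of 2.99.

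Here the whole-number pileup and the background were solved from fold and p for each summit, which succeeded for 100% of intervals, and for 100% of 19115 simulated peaks. Several summits of an interval counted once, by the strongest. Intervals were merged, annotated with GENCODE M21 (basic) and searched for motifs in the GRCm38.p6 genome from RefSeq (Python 3.11.15, SciPy 1.17.1). Start-site windows were 1 kb and motif windows 100 bp on each side of the treated summit with the best p. Shares carry 95% Wilson intervals. Regions were named by the 10 best lowest −log10 q over the 4 treated lists, the 10 best without a Ctrl interval within 1 kb and less than 50% masked, the 10 best at coding start sites, and those within 5 kb of 8 gene lists. A rule added after seeing the data also asked for the genome background in all 4 lists. The regions, gene lists and motifs were chosen with earlier results of these data known. The total reads per list are not given in the lists, and the genome background stands in for depth. Some markers, 1 motif and part of the prostate lineage list are not reported here.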

Additional observations from a re-analysis of the deposited data

How the results depend on the processing

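The number of regions, the start-site share, the levels, the motif shares and the gene list shares were recomputed under the alternatives that bear on each, and of 218 values 144 stayed within the interval of the reported value or, for counts, within 1.5 times of it. A q-value of at most 0.01 in the treated lists before merging left 4240 regions and gave an AP-1 share of 37.3%. At 1e-05 the count was 1942, with 16.7% at start sites, 39.0% with AP-1, 60.9% lowest in IFNγ and 45.7% highest in Oxali + IFNγ. Equal numbers of the best-ranked calls per list were also taken, set by the IFNγ list, the shortest, which thus kept all its weak calls. This choice favors a lowest level in IFNγ. The count was then 2469, with 14.7%, 36.9%, 87.8% and 50.2% in the same order. Without regions within 500 bp of a Ctrl interval these were 6.93%, 39.6%, 66.9% and 51.1%. Without repeats 67.0% were lowest in IFNγ and 49.4% highest in Oxali + IFNγ. Scaled to the regions called in all 5 lists, those shares were 23.7% and 31.6%. Start-site windows of 500 bp and 2 kb gave 5.78% and 18.1%, and a motif window of 50 bp gave an AP-1 share of 28.7%. Alternatives added after seeing the data were C or G in the middle of AP-1 (29.8%) and regions over 1 kb from Ctrl at the genome background, where AP-1 was in 42.1%, 64.2% were lowest in IFNγ and 50.7% highest in Oxali + IFNγ. In the gene body alone the p53 and immediate early lists each held 0. Median levels ranged from 3.99 to 6.83 in Oxali, 3.63 to 5.96 in Cispl, 2.81 to 4.05 in IFNγ and 4.49 to 7.52 in Oxali + IFNγ. For the other 15 motifs, 13 values left their interval with the 50 bp window and 12 under other alternatives. No paired analysis was possible because each list came from both libraries of its group together, and for the same reason no library could be left out. The lists do not give their total reads, and the part of depth in these values was not tested.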
